A study of Mus musculus with 10 samples.

Results

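RNA of 6 genes of fibroblast growth factor (FGF) signalling through FGF receptor 2 was compared here in tip samples of the embryonic mouse lung. They are the receptor gene *Fgfr2*, the ETS transcription factor genes *Etv4* and *Etv5*, and the feedback inhibitor genes *Spry2*, *Spry4* and *Dusp6*. The genes were chosen by name, as receptor and targets of the pathway, and not by a threshold on a measured value, though earlier results of these data were known when they were chosen. Each had 1 probe set that names it alone, so that 6 of the 17813 genes measured are described. RNA was measured on 10 Affymetrix mouse arrays, 5 from cells of E17.5 lungs and 5 from tips of E11.5 lungs, and the 5 of a stage are labelled as biological replicates. Cells of E17.5 carried GFP and were taken by flow cytometry, after trypsin/EDTA dissociation, from *Id2-CreER; Rosa26R-fGFP* embryos whose mothers had tamoxifen (150 μg per g body weight) at E16.5. Tips of E11.5 were dissected out after 5 minutes in dispase (16 U/ml), and their labelled genotype is also *Id2-CreER; Rosa26R-fGFP*. In these embryos the *Id2* gene drives an inducible Cre that switches on a heritable GFP label, so the sorted cells are cells that expressed *Id2* around E16.5 together with their immediate progeny. Stage, way of isolation and tamoxifen cannot be told apart in these samples. No source used here says whether replicates came from separate litters, so p-values measure the spread between these arrays.

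In the developing lung, the mesenchyme around the distal tips makes FGF10, which binds the epithelial splice form of FGF receptor 2 and keeps the tips growing and branching. The receptor acts through adaptor proteins, RAS and the kinase ERK, which raise transcription of *Etv4* and *Etv5*. The same pathway raises its own inhibitors. Sprouty proteins (*Spry* genes) restrain signalling between receptor and ERK, and DUSP6 is a phosphatase that removes the activating phosphates from ERK. These target genes are widely used as a reading of FGF activity in lung tips.

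The letters of the start-site windows of 4 of these genes are shown because ETS factors, the proteins that *Etv4* and *Etv5* encode, bind DNA around a GGAA core, so that the windows are a place to look for matches among genes of 1 pathway. Each window runs from 250 bases before to 50 bases after a RefSeq transcription start (build GRCm38.p6), reads 5′ to 3′ on the strand of the gene, and has matches to AGGAAG or CCGGAA, on either strand, in capitals. The windows are chr7:130266759-130267058 (minus strand) for *Fgfr2*, chr10:99262981-99263280 (plus strand) for *Dusp6*, chr14:105896770-105897069 (minus strand) for *Spry2* and chr16:22438319-22438618 (minus strand) for the more downstream of 2 starts of *Etv5*.
Fgfr2: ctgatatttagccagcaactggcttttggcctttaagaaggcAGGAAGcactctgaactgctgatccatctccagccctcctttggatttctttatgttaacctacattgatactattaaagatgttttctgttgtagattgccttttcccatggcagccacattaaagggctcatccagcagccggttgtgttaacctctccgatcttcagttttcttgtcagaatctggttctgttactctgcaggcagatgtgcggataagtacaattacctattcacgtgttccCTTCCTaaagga
Dusp6: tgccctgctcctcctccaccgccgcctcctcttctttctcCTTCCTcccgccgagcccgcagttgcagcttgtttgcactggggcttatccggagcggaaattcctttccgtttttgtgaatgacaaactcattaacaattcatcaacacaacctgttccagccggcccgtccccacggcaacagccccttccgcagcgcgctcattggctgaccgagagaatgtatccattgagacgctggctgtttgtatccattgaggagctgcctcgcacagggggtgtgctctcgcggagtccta
Spry2: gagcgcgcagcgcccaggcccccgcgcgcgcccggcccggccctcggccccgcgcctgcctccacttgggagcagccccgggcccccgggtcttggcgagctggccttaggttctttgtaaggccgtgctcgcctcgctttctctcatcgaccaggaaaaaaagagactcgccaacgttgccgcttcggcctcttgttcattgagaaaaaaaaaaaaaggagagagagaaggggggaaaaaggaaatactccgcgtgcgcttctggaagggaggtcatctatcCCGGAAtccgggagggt
Etv5: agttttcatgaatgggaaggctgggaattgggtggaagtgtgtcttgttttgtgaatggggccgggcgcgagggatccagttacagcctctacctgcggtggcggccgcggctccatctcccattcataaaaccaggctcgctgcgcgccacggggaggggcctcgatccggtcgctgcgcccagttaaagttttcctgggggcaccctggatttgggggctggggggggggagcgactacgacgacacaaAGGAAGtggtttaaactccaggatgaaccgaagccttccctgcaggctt
The *Fgfr2* window held AGGAAG 208 bases before the start and its reverse complement CTTCCT 38 bases after it. The *Dusp6* window held CTTCCT 210 bases before the start. The *Spry2* window held CCGGAA 33 bases after the start, and the printed *Etv5* window held AGGAAG 1 base after it. The other *Etv5* window (chr16:22439521-22439820) held neither. Of all 32851 windows of this length, 35.4% held AGGAAG, 14.9% held CCGGAA and 45.2% held at least 1 of them on either strand, so matches of this kind are common. No window of *Etv4* or *Spry4* was read here.

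The 6 genes did not move together. At E17.5, *Fgfr2* and *Dusp6* were higher than at E11.5, *Etv4*, *Etv5* and *Spry2* were lower, and *Spry4* did not pass the threshold. The largest change of the 6 was that of *Spry2*, 6.90-fold lower at E17.5. In size it exceeded the changes of 89.2% of all genes, against 78.3% for *Etv4*, 68.4% for *Etv5*, 62.4% for *Dusp6*, 56.2% for *Fgfr2* and 21.2% for *Spry4*. In limma's test of the stages, a call meant an adjusted p (Benjamini-Hochberg, over all 17813 genes) below 0.05. By this rule 5 of the 6 genes (83.3%) were called, against 68.4% of all genes, and 36.9% of all genes were called higher and 31.5% lower. For the same 5 genes no E17.5 array overlapped an E11.5 array, which held for 58.6% of all genes (32.3% higher and 26.3% lower at E17.5). With so many genes called, the share among 6 genes says little, and the directions and sizes below carry the description.

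**Figure D1:**
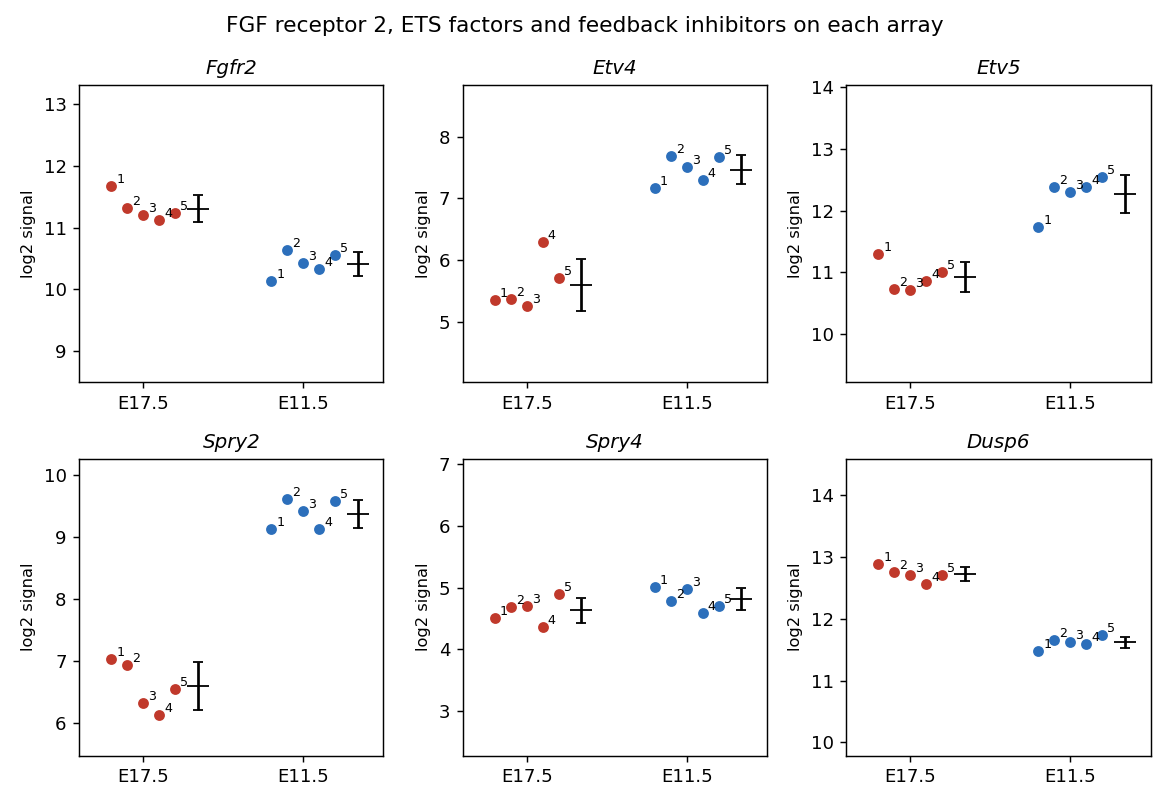
Log2 signal (y axis, 1 unit is a 2-fold difference, all panels with the same span) of the 6 genes on each of the 5 arrays of E17.5 (red, left) and of E11.5 (blue, right). Numbers are replicates, and the black bar is the mean with 1 SD over 5 arrays. *Fgfr2* and *Dusp6* lie higher at E17.5, *Etv4*, *Etv5* and *Spry2* lie lower, and the arrays of *Spry4* overlap.

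*Fgfr2*, the receptor gene (chr7:130162451-130266808 in GRCm38.p6), had log2 signals of 11.67, 11.31, 11.20, 11.13 and 11.24 on E17.5 replicates 1 to 5, against 10.14, 10.63, 10.42, 10.33 and 10.56 on E11.5 replicates 1 to 5. All E17.5 arrays lay above all E11.5 arrays, and E17.5 replicate 1 was the highest. The mean was 11.31 ± 0.21 at E17.5 and 10.42 ± 0.19 at E11.5 (SD, n = 5 each), a 1.85-fold rise (log2 fold change 0.89, 95% interval 0.61 to 1.17, adjusted p = 4.31e-05 from limma). The rise depended on the scaling of the arrays. The upper quartile of the signals reached 10.04 among E17.5 arrays and 9.46 among E11.5 arrays, and after quantile normalization, which makes these equal, the change of *Fgfr2* was 1.23-fold (adjusted p = 0.0447 from limma). By rank the arrays overlapped, since *Fgfr2* was brighter than 85.9 to 90.1% of probe sets at E17.5 and than 82.3 to 86.8% of them at E11.5. The probe set carries the suffix _a, for probes shared by several transcripts of a gene, and does not tell the epithelial splice form from the mesenchymal one.

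The ETS factor genes were both lower at E17.5. *Etv4* (chr11:101769747-101785310) had log2 signals of 5.35, 5.37, 5.26, 6.29 and 5.71 on E17.5 replicates 1 to 5, against 7.17, 7.69, 7.51, 7.30 and 7.67 on E11.5 replicates 1 to 5. Replicate 4 stood highest among the E17.5 arrays and was still below every E11.5 array. The mean was 5.60 ± 0.42 at E17.5 and 7.47 ± 0.23 at E11.5 (SD, n = 5 each), which is 3.65-fold lower (log2 fold change -1.87, 95% interval -2.29 to -1.45, adjusted p = 2.42e-06 from limma). *Etv4* was brighter than 32.7 to 42.8% of probe sets on E17.5 arrays, against 50.3 to 56.2% on E11.5 arrays.

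*Etv5* (chr16:22381313-22439570) had log2 signals of 11.30, 10.73, 10.72, 10.86 and 11.001 on E17.5 replicates 1 to 5, against 11.74, 12.39, 12.31, 12.38 and 12.55 on E11.5 replicates 1 to 5. The nearest arrays of the stages, replicate 1 of each, were 0.43 apart. The mean was 10.92 ± 0.24 at E17.5 and 12.27 ± 0.31 at E11.5 (SD, n = 5 each), which is 2.55-fold lower (log2 fold change -1.35, 95% interval -1.70 to -0.995, adjusted p = 9.86e-06 from limma). *Etv5* still gave a bright signal at E17.5, above 82.3 to 87.3% of probe sets, against 94.4 to 97.5% at E11.5.

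Whether the related genes fell by unequal amounts was tested on the difference of their log2 signals within each array. For *Etv5* minus *Etv4* this was 5.32 ± 0.50 at E17.5 and 4.80 ± 0.19 at E11.5 (SD, n = 5 each), a difference of 0.52 between the stages (95% interval -0.01 to 1.02, p = 0.0714 in a two-sided exact permutation test, adjusted p = 0.0714 over 2 pairs). An unequal fall was therefore not shown, and the interval allows one of up to 1.02 on the log2 scale. This interval is one of signals, not shown to be one of RNA amounts. *Etv4* was among the dim genes, and whether its signal understated the fall at E17.5 was not tested. Without E17.5 replicate 4, where *Etv4* was highest, the difference was 0.71 (exact permutation p = 0.00794), and after quantile normalization it was 0.11.

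The feedback inhibitor genes went different ways. *Spry2* (chr14:105891947-105896819) had log2 signals of 7.03, 6.94, 6.33, 6.13 and 6.55 on E17.5 replicates 1 to 5, against 9.14, 9.61, 9.43, 9.14 and 9.58 on E11.5 replicates 1 to 5. The stages were 2.11 apart at their nearest arrays, more than the range within either stage (0.90 at E17.5 and 0.47 at E11.5). The mean was 6.59 ± 0.39 at E17.5 and 9.38 ± 0.23 at E11.5 (SD, n = 5 each), which is 6.90-fold lower (log2 fold change -2.79, 95% interval -3.18 to -2.39, adjusted p = 3.09e-08 from limma). *Spry2* was brighter than 41.6 to 49.2% of probe sets on E17.5 arrays, against 71.6 to 76.8% on E11.5 arrays.

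*Spry4*, which encodes another Sprouty protein (chr18:38586247-38601347), had log2 signals of 4.51, 4.69, 4.69, 4.36 and 4.90 on E17.5 replicates 1 to 5, against 5.00, 4.78, 4.97, 4.58 and 4.71 on E11.5 replicates 1 to 5. The arrays of the stages overlapped, and the signal was dim throughout, above 22.3 to 28.5% of probe sets in E17.5 samples and 24.3 to 29.0% in E11.5 samples. The mean was 4.63 ± 0.20 at E17.5 and 4.81 ± 0.18 at E11.5 (SD, n = 5 each), with a log2 fold change of -0.18 (95% interval -0.44 to 0.09, adjusted p = 0.216 from limma). After median centring of the arrays it passed as lower (-0.31, adjusted p = 0.0334 from limma). *Spry4* minus *Spry2* was -1.96 ± 0.40 at E17.5 and -4.57 ± 0.30 at E11.5 (SD, n = 5 each), so that the changes of the 2 signals differed by 2.61 (95% interval 2.05 to 3.15, p = 0.00794 in a two-sided exact permutation test, the smallest that 5 against 5 arrays allow, adjusted p = 0.0159 over 2 pairs). A probe set near the dim end of the table may show little of a fall. Whether this bears on *Spry4* was not tested, and the difference from *Spry2* is one of signals, not shown to be one of RNA amounts.

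*Dusp6*, the ERK phosphatase gene (chr10:99263231-99267489), had log2 signals of 12.89, 12.76, 12.71, 12.56 and 12.70 on E17.5 replicates 1 to 5, against 11.48, 11.66, 11.62, 11.59 and 11.73 on E11.5 replicates 1 to 5. The spread within each stage was the narrowest of the 6 genes. The mean was 12.72 ± 0.12 at E17.5 and 11.62 ± 0.09 at E11.5 (SD, n = 5 each), which is 2.15-fold higher (log2 fold change 1.11, 95% interval 0.92 to 1.30, adjusted p = 1.73e-07 from limma). After quantile normalization the rise was 1.56-fold (log2 fold change 0.64, adjusted p = 1.19e-05 from limma), and by rank the arrays stayed apart, with *Dusp6* above 96.1 to 97.1% of probe sets in E17.5 samples and 93.0 to 94.2% in E11.5 samples. Thus the phosphatase gene and the *Spry2* gene, both raised by FGF signalling in many tissues, were called in opposite directions on the same arrays. In the exact permutation test on single genes, *Fgfr2*, *Etv4*, *Etv5*, *Spry2* and *Dusp6* each had p = 0.00794, the smallest possible, and *Spry4* had p = 0.19.

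Certain arrays recurred at the edges. E17.5 replicate 1 was the highest E17.5 array for *Fgfr2*, *Etv5*, *Spry2* and *Dusp6*, and replicate 4 was the lowest for *Fgfr2*, *Spry2*, *Spry4* and *Dusp6* and the highest for *Etv4*. E11.5 replicate 1 was the lowest E11.5 array for *Fgfr2*, *Etv4*, *Etv5* and *Dusp6*. On that array the pan-epithelial list was also lowest (11.77, against 11.87 to 11.99 on the other E11.5 arrays) and the mesenchymal list highest (8.06, against 7.05 to 7.94). The endothelial and macrophage lists were highest of the stage there as well (6.51 and 6.08). On E17.5 replicate 1 the pan-epithelial list was highest of its stage (12.55) and the mesenchymal list lowest (7.26). Replicate 4 of E17.5 came next on both lists (12.47 and 7.39), and was at the opposite edge for *Fgfr2*, *Spry2* and *Dusp6*. Other lists set these arrays apart. Among E17.5 arrays, replicate 1 was highest and replicate 4 lowest on the alveolar type 1 list (12.26 and 11.57) and the macrophage list (9.94 and 9.33). The part of cell composition in these differences was not tested.

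Among related inhibitors of the receptor to ERK route, 17 genes were measured. At E17.5, 10 were higher, 5 lower and 2 (*Spry4* and *Fgfrl1*) did not pass the threshold. Their median log2 fold change was 0.85, against 0.03 over all genes. Of all genes, 36.9% were called higher and 31.5% lower, the shares to set beside this and each list count below. With *Spry2*, *Spry4* and *Dusp6* left aside, which was decided with the values in view, 9 of 14 rose and 4 fell. The median of all 17 genes depended on the scaling. After quantile normalization *Cbl*, the gene at the median, went from 0.85 to 0.36, with 9 of the 17 higher and 6 lower. The Sprouty genes were split. *Spry1* averaged 12.001 ± 0.15 at E17.5 and 9.30 ± 0.23 at E11.5 (SD, n = 5 each), which is 6.51-fold higher (adjusted p = 9.66e-10 from limma), while *Spry3*, dim at both stages, fell by 1.13 on the log2 scale. The Spred genes, whose products hold back ERK signalling, were split as well, with *Spred1* 3.76-fold higher, *Spred2* 7.48-fold lower and *Spred3* lower with a log2 fold change of -0.80. *Spred2* averaged 4.51 at E17.5, as dim as *Spry4*, so its fold is one of signals and may understate the fall.

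Of 4 other ERK phosphatase genes, 3 were higher at E17.5 like *Dusp6*. *Dusp4* was 2.58-fold, *Dusp5* 4.12-fold and *Dusp7* 2.72-fold higher at E17.5. The exception was *Dusp9*, which averaged 6.80 ± 0.35 at E17.5 and 11.12 ± 0.18 at E11.5 (SD, n = 5 each), 20.03-fold lower (adjusted p = 1.9e-10 from limma). Of the other inhibitors, *Il17rd* (the membrane inhibitor Sef), *Nf1* (a RAS GTPase activating protein), *Cbl* (a ubiquitin ligase of receptors) and *Rasa1* were higher, with log2 fold changes of 1.55, 1.51, 0.85 and 0.60. *Rasa1* lost its call after quantile normalization (-0.01), and *Fgfrl1*, a receptor-like gene without a kinase (-0.42 as deposited), then passed as lower (-0.97), as it did after median centring (-0.55).

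**Figure D2:**
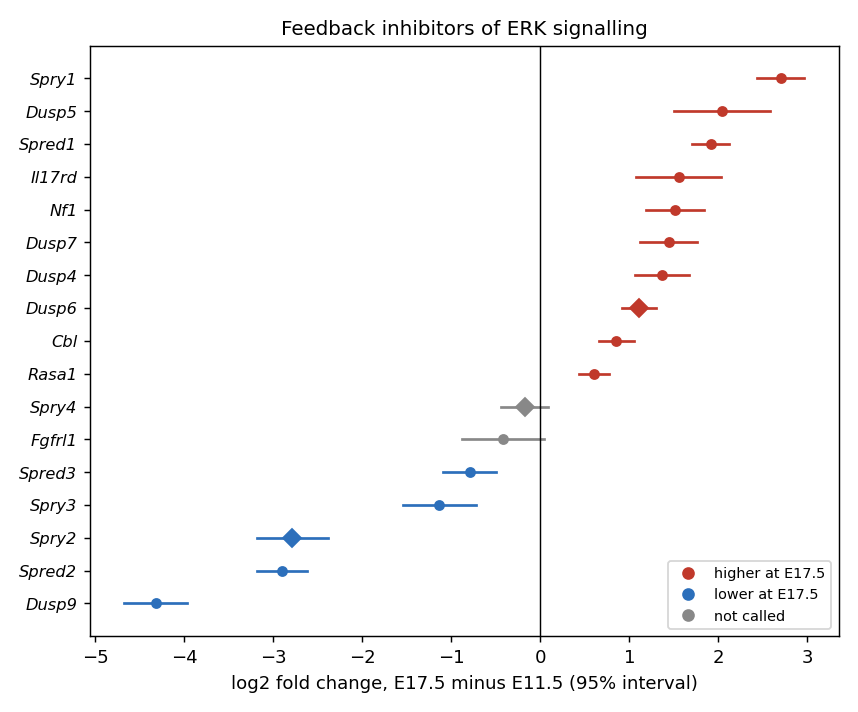
Log2 fold change of E17.5 minus E11.5 (x axis) with its 95% interval from limma for 17 inhibitors of ERK signalling, sorted by size. Diamonds are *Dusp6*, *Spry4* and *Spry2*. Red genes were called higher at E17.5, blue ones lower and grey ones not called, from *Spry1* at 2.70 to *Dusp9* at -4.32.

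At E17.5, 13 of 23 ETS family genes measured were higher, 5 lower and 5 (*Elf4*, *Ets1*, *Fli1*, *Spib* and *Spic*) did not pass, with a median log2 fold change of 0.52. *Etv4* and *Etv5* were thus among the minority that fell, together with the repressor genes *Erf* (12.5-fold lower) and *Etv6* (4.21-fold lower) and with *Elk4* (8.71-fold lower), a partner of serum response factor. At E17.5 *Elk4* and *Erf* averaged 4.19 and 4.85, near the dim level of *Spry4*, and their folds may likewise understate the fall. *Etv1*, a close relative of *Etv4* and *Etv5*, was not analysed here. The largest rises were those of *Ets2* (36.6-fold), a factor that ERK phosphorylates, and of the epithelial factors *Elf5* (31.9-fold) and *Ehf* (10.8-fold). The list also holds *Erg* and *Spi1*, which mark endothelial cells and macrophages, and without them, a choice made with the values in view, 11 of 21 were higher and 5 lower. After quantile normalization *Elk1* and *Gabpa* lost their calls and 11 of the 23 were higher. *Gabpa*, the gene at the median, went from 0.52 to -0.07 on the log2 scale.

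**Figure D3:**
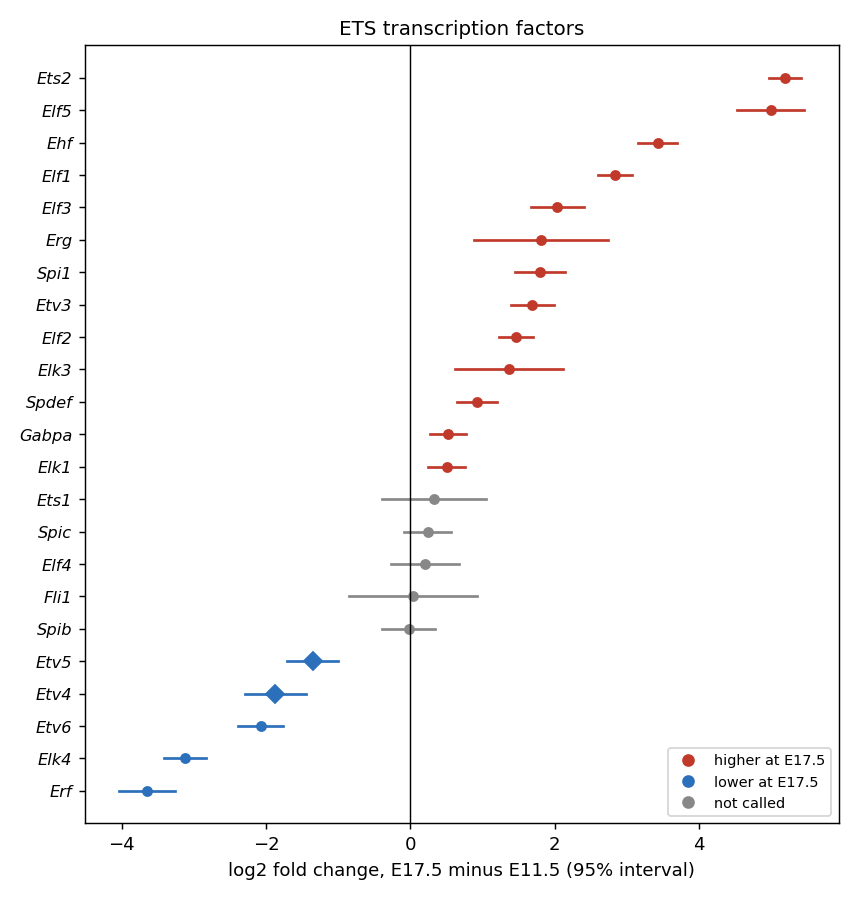
Log2 fold change of E17.5 minus E11.5 (x axis) with its 95% interval from limma for 23 ETS family genes, sorted by size. Diamonds are *Etv4* and *Etv5*. Red genes were called higher at E17.5, blue ones lower and grey ones not called. *Etv4* and *Etv5*, at -1.87 and -1.35, stand beside *Etv6*, *Elk4* and *Erf* on the lower side.

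Of the other receptor genes, *Fgfr3* averaged 11.64 ± 0.12 at E17.5 and 8.74 ± 0.08 at E11.5 (SD, n = 5 each), which is 7.48-fold higher (adjusted p = 2.39e-11 from limma). *Fgfr4* was 2.37-fold higher. *Fgfr1*, the main receptor gene of mesenchyme, was at -0.42 on the log2 scale (adjusted p = 0.0923 from limma) and passed as lower after quantile normalization (-0.92) and median centring (-0.55). *Fgfr2* thus had the smallest of the receptor rises. Over the 18 receptor and co-receptor genes measured, 7 were higher, 6 lower and 5 (*Fgfr1*, *Flrt1*, *Gpc4*, *Gpc5* and *Sdc3*) not called, with a median log2 fold change of 0.00. These counts lie near the shares of all genes (36.9% higher and 31.5% lower). The list holds the core proteins of heparan sulfate, which holds FGF on its receptor. Of 4 syndecans, *Sdc4* (7.16-fold), *Sdc1* (6.87-fold) and *Sdc2* (3.76-fold) were higher, and of 5 glypicans measured, *Gpc2* (4.95-fold), *Gpc6* (4.62-fold) and *Gpc1* (2.51-fold) were lower. *Flrt3* was higher and *Flrt2* lower, with log2 fold changes of 1.09 and -1.22. *Klb* and *Kl*, co-receptors of the hormone-like FGFs, fell by 1.53 and 0.55 on the log2 scale. Both were dim, averaging 3.45 and 3.72 at E17.5 and 4.98 and 4.27 at E11.5.

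Of 14 enzymes measured that build or trim heparan sulfate, 8 were lower at E17.5 (31.5% of all genes were), 2 (*Ext1* and *Hs2st1*) were higher and 4 (*Hs3st1*, *Hs6st3*, *Ndst2* and *Ndst3*) were not called, with a median log2 fold change of -0.38. Some of the lower ones were dim, and 4 were lower when dim genes were left out. *Sulf2*, which removes sulfate groups outside the cell, was 15.6-fold lower, *Extl3*, which starts the chain, 14.3-fold lower and the epimerase gene *Glce* 5.83-fold lower. The polymerase gene *Ext1* was 5.25-fold higher, and *Hs2st1* (log2 fold change 0.69) lost its call after quantile normalization.

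At E17.5, 6 of 22 ligand genes were higher, 5 lower and 11 not called, with a median log2 fold change of -0.04. *Fgf1* averaged 12.27 ± 0.04 at E17.5 and 5.93 ± 0.24 at E11.5 (SD, n = 5 each), which is 80.9-fold higher (adjusted p = 6.85e-13 from limma). *Fgf18* was 7.92-fold and *Fgf9*, a ligand of lung epithelium and mesothelium, 3.39-fold higher. The lower ones were *Fgf11*, *Fgf4*, *Fgf5*, *Fgf17* and *Fgf13*, with log2 fold changes of -1.21, -1.10, -1.02, -0.78 and -0.75. All of them were dim, from *Fgf4* (3.24 at E17.5 and 4.34 at E11.5) to *Fgf13* (5.98 at E17.5 and 6.73 at E11.5). With dim genes left out (mean signal below 7.18), 3 ligand genes were higher and 0 lower. The products of *Fgf11* and *Fgf13* stay inside the cell and are not ligands of these receptors in the usual sense. Of the ligands of the epithelial form of FGF receptor 2 that mesenchyme makes, *Fgf10* averaged 4.67 ± 0.29 at E17.5 and 4.42 ± 0.18 at E11.5 (SD, n = 5 each, adjusted p = 0.151 from limma), and *Fgf7* 5.03 ± 0.55 at E17.5 and 4.01 ± 0.25 at E11.5 (SD, n = 5 each, adjusted p = 0.00197 from limma). Both were dim at either stage. The samples were taken as tip epithelium and do not show the mesenchymal ligand that the tips receive.

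**Figure D4:**
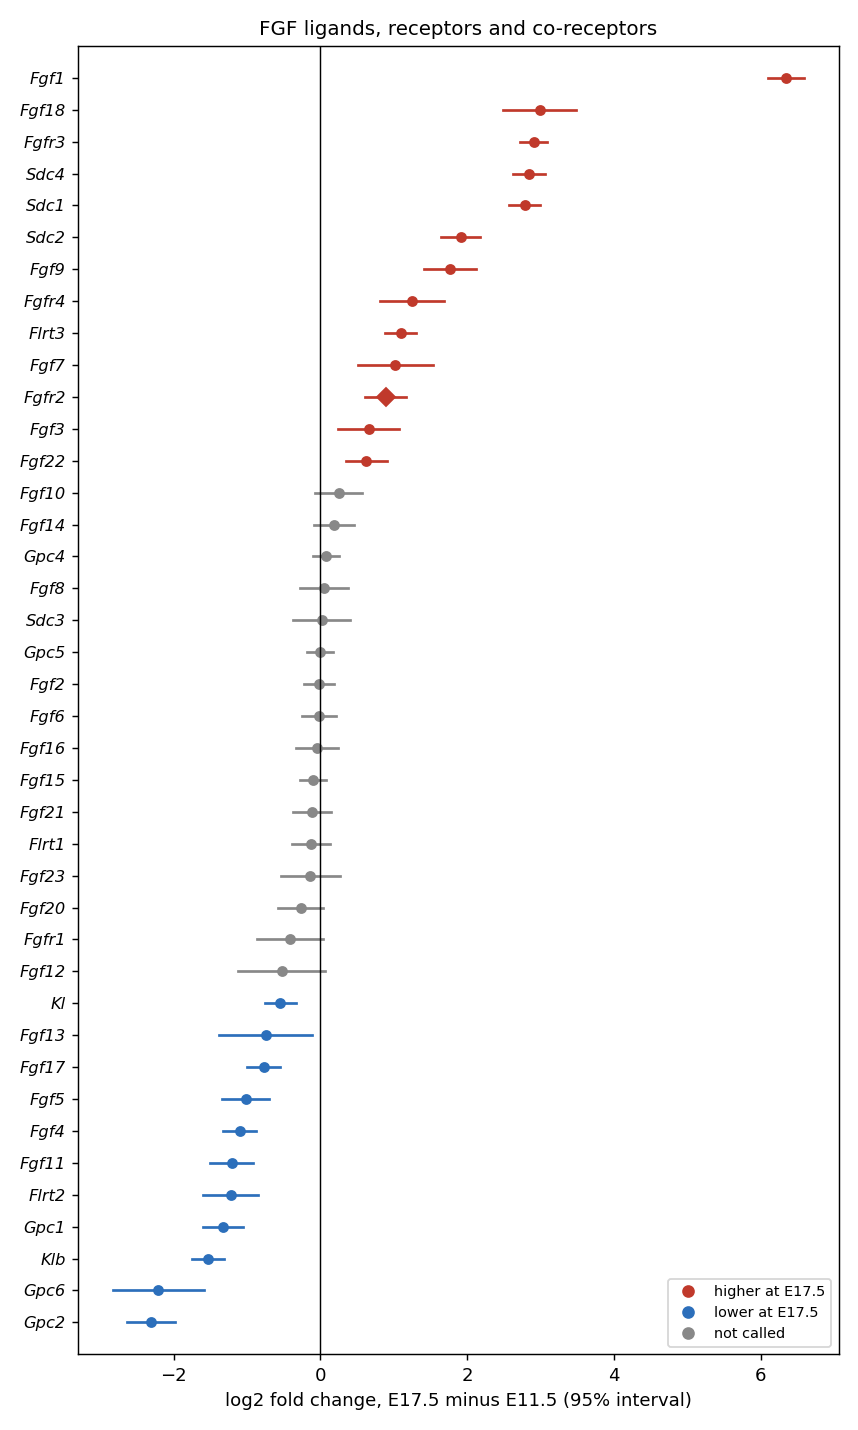
Log2 fold change of E17.5 minus E11.5 (x axis) with its 95% interval from limma for 22 FGF ligand genes and 18 receptor and co-receptor genes, sorted by size. The diamond is *Fgfr2*. Red genes were called higher at E17.5, blue ones lower and grey ones not called, from *Fgf1* at 6.34 to *Gpc2* at -2.31.

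Between receptor and ERK, at E17.5, 11 of 17 genes measured were higher, 5 lower and *Map2k1* (-0.03, but lower at -0.60 after quantile normalization) was not called, with a median log2 fold change of 0.73. *Plcg1*, a phospholipase that binds activated FGF receptors, was 25.8-fold higher, the docking protein gene *Gab1* 5.82-fold, the scaffold *Ksr1* 4.07-fold and the adaptor *Grb2* 2.30-fold. The lower genes were *Crkl* (5.15-fold lower), *Ptpn11* (3.88-fold lower), whose phosphatase SHP2 is needed for ERK activation, *Nras*, *Shc1* and the FGF adaptor *Frs3*, the last 3 with log2 fold changes of -1.45, -1.11 and -0.46. Of the higher genes, *Sos1*, *Map2k2* and *Rps6ka3* lost their calls after quantile normalization, which left 8 of the 17 genes higher and 6 lower. The median depended on the scaling, since *Rps6ka3*, the gene at the median, went from 0.73 to 0.13 on the log2 scale.

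The splicing factors that choose between the receptor's epithelial and mesenchymal exons were also read. *Esrp1* and *Esrp2*, which favour the epithelial exon, stayed bright, with *Esrp1* at 13.15 ± 0.03 at E17.5 and 13.39 ± 0.02 at E11.5 (SD, n = 5 each), a fall by 0.23 on the log2 scale, and *Esrp2* 1.76-fold higher at E17.5. After quantile normalization their log2 fold changes were -0.63 and 0.33, still called. *Ptbp1* was 9.14-fold higher and *Rbfox2* 4.89-fold lower.

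Of 12 other genes linked to distal tips or to signals that tips send, 5 (*Ptch1*, *Sftpc*, *Id2*, *Mycn* and *Bmp4*) were higher at E17.5, 5 (*Ccnd1*, *Wnt7b*, *Shh*, *Foxa2* and *Foxp2*) lower and 2 (*Sox9* and *Nkx2-1*) not called, with a median log2 fold change of 0.04. *Sox9*, a tip factor downstream of FGF signalling, averaged 9.58 ± 0.37 at E17.5 and 9.60 ± 0.09 at E11.5 (SD, n = 5 each, adjusted p = 0.92 from limma), but passed as lower after quantile normalization (-0.59). *Id2*, whose locus drives the label used for the sort at E17.5, was 4.28-fold higher and *Mycn*, a transcription factor that drives proliferation, 2.79-fold. *Bmp4* had a log2 fold change of 0.29 that turned to -0.28, called lower, after quantile normalization. *Shh* was 11.1-fold lower, *Wnt7b* 15.2-fold lower and the cyclin gene *Ccnd1* 21.3-fold lower, against an 18.6-fold rise of *Ptch1*, which encodes the receptor of SHH. Whether the *Ptch1* signal came from tip epithelium or from other cells was not tested.

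The samples held the markers that their labels name, and others. The 15 pan-epithelial genes had a mean log2 signal between 12.31 and 12.55 on E17.5 arrays, against 11.77 to 11.99 on E11.5 arrays. Of 10 markers of alveolar type 2 (AT2) cells, 9 were higher at E17.5 and *Lpcat1* was lower, and all 10 of alveolar type 1 cells were higher. *Lpcat1* averaged 3.17 ± 0.10 at E17.5, near the lowest signal of all arrays (2.47), and 7.90 ± 0.07 at E11.5 (SD, n = 5 each). By staining, the study found LPCAT1 protein robustly in tips from E16.5. Whether the probe set used here reports this gene was not tested. Markers of other cells rose over the same comparison as *Fgfr2* and *Dusp6*. Of 12 endothelial markers 11 were higher, with a mean of 8.64 to 10.71 in E17.5 samples, against 5.36 to 6.51 in E11.5 samples, and of 15 macrophage and monocyte markers 14 were higher, with a mean of 9.33 to 9.94 in E17.5 samples, against 5.36 to 6.08 in E11.5 samples. *Ptprc*, which marks blood cells, averaged 8.85 ± 0.22 at E17.5 and 4.25 ± 0.27 at E11.5, and *Pecam1*, which marks endothelium, 10.71 ± 0.96 at E17.5 and 5.44 ± 0.40 at E11.5 (SD, n = 5 each). The epithelial gene *Epcam* averaged 13.34 ± 0.16 at E17.5 and 11.43 ± 0.07 at E11.5 (SD, n = 5 each). All 17 immediate early genes measured, which ERK and cell handling both raise, were higher, with means of 11.83 to 12.15 in E17.5 samples, against 7.49 to 7.63 in E11.5 samples. The mesenchymal list had means of 7.26 to 8.22 in E17.5 samples, against 7.05 to 8.06 in E11.5 samples, with 5 of 15 higher and 6 lower, and the erythroid list means of 5.86 to 6.49 in E17.5 samples, against 7.95 to 8.89 in E11.5 samples, with 1 of 8 higher and 4 lower. The part of other cells and of handling in the changes of the 6 genes was not tested. In bulk samples, fewer cells of a type and less RNA per cell cannot be told apart.

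**Figure D5:**
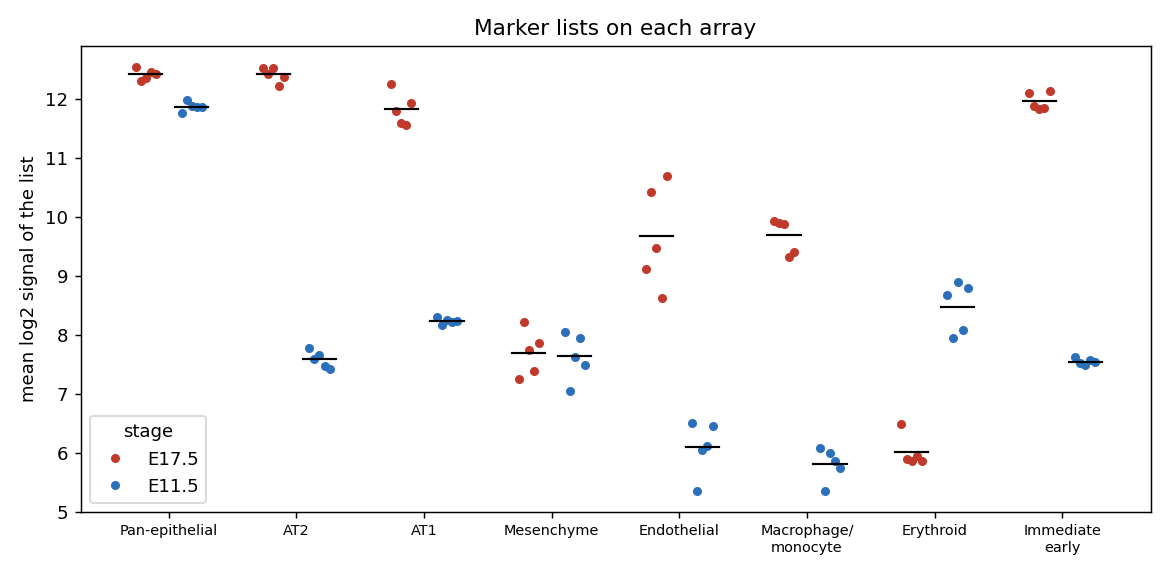
Mean log2 signal (y axis) of the genes of each marker list on each of the 5 arrays of E17.5 (red, left) and of E11.5 (blue, right), where a bar marks the average over 5 arrays. The endothelial, macrophage and immediate early lists lie higher at E17.5 with no overlap, the erythroid list lies lower and the mesenchymal lists overlap.

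The genes whose pattern was most like that of each of the 6 genes were found by the root mean square difference of log2 signals over the 10 arrays, after each gene was centred on its own mean. For *Fgfr2* these were *Bahd1* (0.08), *Nsf* (0.09) and *Ubxn6* (0.10). For *Dusp6* they were *Hacd3* (0.06), *5530601H04Rik* (0.07) and *Ppp4r3b* (0.07). For *Etv4* they were *Rcan2* (0.12), *Bard1* (0.15) and *Sfxn1* (0.16), and for *Etv5* they were *Bpgm* (0.09), *Exosc3* (0.11) and *Mapk6* (0.11). For *Spry2* they were *Ivns1abp* (0.13), *Bdh1* (0.15) and *Slmap* (0.17), and for *Spry4* they were *B830017H08Rik* (0.09), *Yrdc* (0.10) and *Cilp* (0.10). None of the 6 genes was among the 3 nearest of another, and with 2 stages the measure mostly reads the size of 1 change.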

How the data were processed

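Per the labels and the study's methods, RNA was amplified and labelled with NuGEN kits and hybridised to Affymetrix whole-genome mouse arrays, which the authors analysed with Bioconductor packages. The values they deposited are log2 signals for 21204 probe sets of 10 arrays (2.47 to 15.03, 0 missing values). The log2 scale was read from this range, and the background correction, the normalization and the choice of probe sets are not given in the sources used. Depth does not apply to arrays, whose number limits the precision.

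Genes came from GEO's platform annotation, in which the 17981 probe sets with 1 gene gave 17813 genes, each by its brightest probe set. Names were checked in RefSeq (GRCm38.p6), where 17832 probe sets matched and 0 symbols changed. Stages were compared as E17.5 minus E11.5 in R 4.3.3 with limma 3.58.1 (lmFit, eBayes) on the values as deposited, with intervals from the same fit, and tested on simulated data. Pair differences used an exact permutation test, inverted for its interval. Genes named in the text are the 6 genes, in each list up to 4 called genes with the largest change and those behind counts of 5 or fewer, and the 3 most alike genes, with a few added for their role. The genes and lists were chosen with earlier results of these data known. No filter on dim genes was applied. Promoter windows and figures were made with Python 3.11.15 and matplotlib 3.10.9.

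The results were recomputed after quantile normalization or median centring, with the mean or the dimmest probe set of a gene or none of suffix _x, _s or _a, without dim genes, with eBayes trend and robust, with array weights, with the replicate number as a block, against a 1.5-fold change and with each array left out in turn.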

Additional observations from a re-analysis of the deposited data

Results flagged for a closer look

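Of 254 groups of 5 arrays checked, for every gene of the pathway and tip lists at each stage, 14 held an array set apart by more than 0.71 of the group's range, and chance alone gives about 1 in 20. None of the 12 groups of *Fgfr2*, *Etv4*, *Etv5*, *Spry2*, *Spry4* and *Dusp6* was among them. The values below are log2 signals, each with that of the nearest array of its stage.

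At E17.5, replicate 1 stood apart for *Fgfr4* (7.98, nearest 8.86), *Elf3* (10.16, nearest 9.45) and *Fgf4* (3.03, nearest 3.26), replicate 3 for *Fgf21* (3.92, nearest 4.20) and replicate 4 for *Etv6* (8.94, nearest 8.29). At E11.5, replicate 1 was lowest for *Fgfr1* (8.94, nearest 9.30), *Sdc1* (10.92, nearest 11.26), *Dusp7* (9.23, nearest 9.68) and *Nkx2-1* (8.73, nearest 9.49) and highest for *Sos2* (10.14, nearest 9.93). Replicate 2 of E11.5 stood apart for *Fgf17* (5.51, nearest 5.30), *Elk3* (7.46, nearest 7.74) and *Spdef* (6.91, nearest 6.38), and replicate 3 for *Shc1* (9.09, nearest 9.24).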

How the results depend on the processing

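The direction of each of the 6 genes, and the calls of *Fgfr2*, *Etv4*, *Etv5*, *Spry2* and *Dusp6*, held under the alternatives that kept the gene. Several of these could not alter a direction. Each gene had 1 probe set, so the mean and the dimmest probe set gave the same values. The filters, eBayes trend and robust, the replicate block and the 1.5-fold test left each fold change as it was, and only p-values could move. Rescaling, array weights and leaving out arrays could change both. After quantile normalization 5676 genes were called higher and 6949 lower, and after median centring 5920 and 6576, against 6568 and 5609 as deposited. The median log2 fold change of all genes was then -0.04 and -0.10. Quantile normalization left *Fgfr2* at 0.30, *Dusp6* at 0.64, *Etv4* at -1.98, *Etv5* at -1.87 and *Spry2* at -3.10, and 1 heparan sulfate enzyme gene higher. Median centring made *Spry4* a call (-0.31) and called 8 ligand genes lower. Without probe sets with the suffix _x, _s or _a, *Fgfr2* was not measured, 1 of the 6 genes (*Dusp6*) was higher, and 1 splicing factor gene was higher and 1 lower. Without dim genes, which removes *Etv4* and *Spry4*, 3404 genes were lower, 3 ligand genes were higher and 0 lower by limma, and 4 heparan sulfate enzyme, 2 inhibitor and 2 ETS genes were lower, since fewer genes were tested. Tested against a 1.5-fold change, 3119 genes were lower, 3 ligand genes were higher and 3 lower, 1 heparan sulfate enzyme gene was higher and 1 splicing factor gene lower. The other 254 values, all from fits with every array, kept their call or stayed within 1.5 times the count as deposited.

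Leaving out each array in turn, *Fgfr2* ranged from 0.80 to 0.94, *Etv4* from -2.04 to -1.79, *Etv5* from -1.48 to -1.28, *Spry2* from -2.90 to -2.67, *Spry4* from -0.24 to -0.11 and *Dusp6* from 1.07 to 1.15, with no call changed. *Etv5* minus *Etv4* ranged from 0.36 to 0.71, and passed only without E17.5 replicate 4. Same-numbered arrays did not deviate together (correlations -0.294 to 0.074), so the numbers do not pair the arrays. With the replicate number as a block, 2 of the 6 genes were higher and 3 lower, with adjusted p = 0.000896 for *Fgfr2* from limma. Arrays have no read depth, and whether the dim signal of *Spry4* limited the fall that could be seen was not tested.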
